A study of Mus musculus with 12 samples.

Results

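Myc and 38 genes that build ribosomes in the nucleolus were followed in RAW264.7 cells, a mouse macrophage line, with and without a CRISPR deletion that the labels call NRE1. The 39 genes were taken by symbol from the deposited counts, where all 39 were found among 12483 genes, and all 39 passed the low-count filter that left 12231 genes for testing. By role they are 1 regulator (Myc), 3 abundant nucleolar phosphoproteins, 4 proteins of the box C/D small nucleolar ribonucleoproteins (snoRNPs), 4 proteins of the box H/ACA snoRNPs, 12 factors of the small ribosomal subunit, 12 factors of the large subunit and 3 subunits of RNA polymerase I. RNA was read in 4 groups of 3 clones each. The KO groups were clones 1A, 1B and 2, under LPS (10 ng/mL) plus IFN-gamma (50 ng/mL) for 6 h or in medium alone, and the WT groups were clones 1, 2 and 3 under the same conditions. Each clone gave 1 library per condition. Per the labels, RAW264.7 cells received a pair of CRISPR constructs cutting on either side of NRE1, were selected by GFP and a puromycin marker, and were grown as clones from single cells that were tested for the deletion. Whether WT clones passed through the same steps, how KO clones 1A and 1B relate to each other and what NRE1 stands for are not in the labels. The table has no gene of that name, so the deletion itself was not checked in the counts. In the values that follow, stimulated means LPS with IFN-gamma, KO values are in the order 1A, 1B, 2, and WT values in the order 1, 2, 3.

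Ribosomes are assembled in the nucleolus. RNA polymerase I transcribes a long ribosomal RNA precursor, box C/D snoRNPs methylate it and box H/ACA snoRNPs convert uridines in it to pseudouridine, and separate sets of factors fold and cut it into the small and the large subunit. Myc is a transcription factor that pairs with Max, binds the E-box CACGTG and is known for raising many genes of this pathway in growing cells. LPS acts through Toll-like receptor 4 and IFN-gamma through its own receptor, and together they switch macrophages from growth to an inflammatory programme.

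Total counts ran from 10624591 to 14388590 per library, and mitochondrially encoded genes took 1.24% to 2.53% of them. KO 1A and 1B were the closest pair, with a common coefficient of variation between their counts (edgeR, over all genes) of 4.87% when stimulated and 5.97% in medium. KO 2 differed from either by 15.7% to 18.3%, and WT clones differed from each other by 23.7% to 33.0%. All 11 macrophage markers looked for were measured. Over these 11 the median KO over WT log2 fold change was -0.84 under stimulation and -1.06 in medium, with 9 of 11 negative in each. Of them Mrc1, a mannose receptor, was called lower under stimulation, and Itgam, an integrin of myeloid cells, in medium. Of 7 markers of T and NK cells, 6 of B cells and 6 of neutrophils, 1 each had counts, and none of 6 fibroblast or 5 epithelial markers did. Lck, the T and NK marker with counts, was called higher in both responses (log2 fold change 2.31 in KO clones, 2.36 in WT clones). The part of these markers in the results was not tested.

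Myc was scarce in KO clones in medium and rose under stimulation. It stood at 8.08, 8.99 and 15.5 CPM (counts relative to the library total scaled by TMM, a factor that sets most genes level between libraries) in stimulated KO clones, against 0.300, 0.338 and 1.23 CPM in KO clones in medium, where the libraries held 4, 5 and 15 Myc counts. In WT clones it stood at 20.2, 11.1 and 8.45 CPM when stimulated, against 4.42, 15.2 and 2.49 CPM in medium. The KO groups did not overlap, whereas WT 2 had more Myc in medium than when stimulated and the other WT clones had less. In bulk RNA, fewer cells that express a gene and less of its RNA per cell cannot be told apart. The log2 fold change of stimulated over medium was 4.13 ± 0.80, adjusted p = 0.00138 in KO clones, higher in 3 of 3. In WT clones it was 0.85 ± 0.64, adjusted p = 0.302, higher in 2 of 3, with adjusted p = 0.102 when clone was added as a block. Without the medium library of WT 2 the WT change was 1.93, adjusted p = 0.0197. Myc lies on the plus strand at chr15:61985391-61990374 (GRCm38).

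In medium every KO library had less Myc than every WT library, and under stimulation the groups overlapped. The KO over WT log2 fold change in medium was -3.57 ± 0.79, adjusted p = 0.0598, above the limit of 0.05. It passed with DESeq2 (-3.58, adjusted p = 4.81e-05, a rule that called 3.7% of all genes lower) and without the medium library of WT 3 (-3.99, adjusted p = 0.027). It did not pass with KO 1A and 1B summed (-3.37, adjusted p = 0.373), nor without the medium library of KO 1A (-3.25, 0.293), KO 1B (-3.26, 0.232), KO 2 (-4.48, 0.0723), WT 1 (-3.83, 0.0775) or WT 2 (-2.49, 0.133). Under stimulation it was -0.28 ± 0.64, adjusted p = 0.845, and 0.16 without the stimulated library of WT 1. The KO change of Myc exceeded its WT change by 3.28 ± 1.01, with an unadjusted p of 0.00824 but an adjusted p of 0.761, or 0.254 with the clone block. That excess was 2.20 without WT 2 in medium and 4.20 without KO 2 in medium, the ends of its range when 1 library was left out.

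The related gene Mycn, singled out after its values were seen, was far more abundant. Per kilobase of exon, averaged over the 12 libraries, Mycn reached 81.9 CPM and Myc 2.95 CPM. Mycn stood at 205, 229 and 194 CPM in stimulated KO clones, against 398, 364 and 338 CPM in KO clones in medium. It stood at 184, 137 and 193 CPM in stimulated WT clones, against 371, 284 and 343 CPM in WT clones in medium. Each stimulated library lay below each medium library of its genotype, and Mycn fell in both genotypes (log2 fold change -0.81 ± 0.15, adjusted p = 0.000868 in KO clones, and -0.96 ± 0.15, adjusted p = 0.000394 in WT clones).

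**Figure D1:**
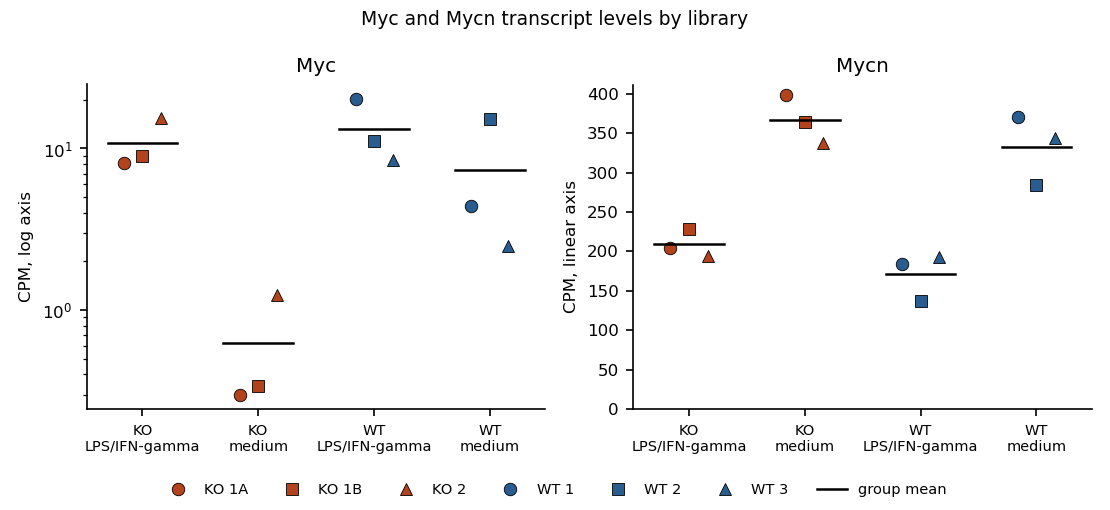
Levels of Myc (log axis) and Mycn (linear axis) in CPM, with 1 point per library and a line at the mean of each group of 3. Myc lies between 0.300 and 1.23 CPM in KO clones in medium and between 2.49 and 20.2 CPM in the other groups, and Mycn is lower in stimulated than in medium libraries of both genotypes.

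Promoter windows of 300 bases (250 before the start and 50 after it, RefSeq, GRCm38.p6) were found for 33 of the 39 genes, and not for Myc, Npm1, Fbl, Rrs1, Bop1 and Rrp12. The E-box CACGTG, a palindrome that reads the same on both strands, was in the windows of 6 of these 33 genes (18.2%), against 12.2% of 8903 tested genes with a window and 8.09% of 27025 genes of the RefSeq table. Before the start alone it was in 2 of the 33 (6.06%), against 10.3% of the tested genes. The 6 matches are shown because they are the letters that Myc with Max is known to bind. Each is given 5′ to 3′ on the gene's strand with the E-box in capitals.
Nop2: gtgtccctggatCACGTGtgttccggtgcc
Utp18: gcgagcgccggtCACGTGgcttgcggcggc
Pes1: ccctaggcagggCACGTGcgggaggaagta
Wdr43: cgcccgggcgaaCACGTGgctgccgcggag
Ltv1: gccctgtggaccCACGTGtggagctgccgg
Utp20: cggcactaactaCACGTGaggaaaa
The Nop2 match begins 60 bases before the start (chr6:125131811-125131840, plus strand) and that of Utp18 20 bases before it (chr11:93885769-93885798, minus strand). The others lie after the start, at chr11:3963965-3963994 (plus strand) in Pes1, chr17:71616220-71616249 (plus) in Wdr43, chr10:13193092-13193121 (minus) in Ltv1 and chr10:88826765-88826789 (minus) in Utp20. Starts are those of RefSeq and need not match those of GENCODE, which begins Wdr43 at chr17:71615895. A match is a description of letters and not of binding. Of the 6 genes, Nop2, Pes1, Wdr43 and Ltv1 were called higher in the KO response, and Utp18 and Utp20 in neither response. Of all members 15 of 39 were called higher there, and of all tested genes 26.7%. The calls of Nop2, Pes1, Wdr43 and Ltv1 were lost with KO 1A and 1B summed (adjusted p = 0.0572 to 0.166). They were also lost with library totals in place of TMM, where Pes1 (-0.13) and Ltv1 (-0.065) turned negative. Whether the matches bear on these changes was not tested.

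Under stimulation most of the 39 genes changed by less than 0.5 on the log2 scale, and those called in KO clones were mostly higher. In KO clones 15 were called higher and 3 lower at an adjusted p below 0.05 (edgeR quasi-likelihood test, Benjamini-Hochberg over all genes), where 26.7% of all tested genes were higher and 27.6% lower. In WT clones 3 were called higher and 4 lower, where 23.8% of all genes were higher and 23.6% lower. In either direction 46.2% of members were called in KO clones and 17.9% in WT clones, against 54.3% and 47.4% of all genes. Rrp9, Rrp12 and Noc4l were higher in both genotypes, and Rrp1b and Ppan lower in both. Called higher in KO clones and not called in WT clones were Myc, Npm1, Nop58, Nop14, Wdr43, Bysl, Ltv1, Nop2, Nop16, Pes1, Noc3l and Polr1a. Nop10 was called lower in KO clones alone, Rrs1 and Polr1b lower in WT clones alone, and 19 genes were called in neither.

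The KO and WT responses were not shown to differ. For the difference between them edgeR called 0 members, and 0.0% of all genes, and 1 of the 39 (Myc) had an unadjusted p below 0.05. DESeq2 also called 0 members, but its share of all genes is not given here, so its count does not set the members apart. With clone as a block, which compares each clone with itself, 18 members were higher and 4 lower in KO clones, and 8 higher and 5 lower in WT clones. That fit called 32.1% and 34.0% of all genes higher and lower in KO clones, and 29.8% and 31.4% in WT clones. It called 0.327% of all genes for the difference between responses, and none of the 39. DESeq2 called 8 members higher in WT clones, where it called 25.6% of all genes, and RLE size factors 5, where they called 24.5%. With KO 1A and 1B summed into 1 clone, 6 members were higher and 1 lower in KO clones, where 19.9% and 19.2% of all genes were. The 7 were Myc, Rrp9, Rrp12, Noc4l, Nop16 and Noc3l, higher, and Ppan, lower, so the other KO calls below were lost when the close pair 1A and 1B counted as 1 clone.

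The direction of the group as a whole depended on how libraries were scaled. With TMM factors the median log2 fold change of the 39 genes was 0.20 in KO and 0.091 in WT clones, above 0, but with library totals alone it was -0.17 and -0.27, below 0. The median of all genes was -0.01 in both responses with TMM factors, and shifted by -0.38 in KO and -0.36 in WT clones under library totals. Library totals called 3 members higher and 11 lower in KO clones (14.7% and 45.1% of all genes) and 3 higher and 14 lower in WT clones (13.0% and 42.8%). Myc, Rrp9 and Noc4l were called higher, and Nop10, Rrp1b and Ppan lower, in KO clones under either scaling. In WT clones Rrp9, Rrp12 and Noc4l were called higher, and Rrp1b, Rrs1, Ppan and Polr1b lower, under either.

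The number of members whose libraries did not overlap was smaller in WT than in KO clones, as for all genes. All 3 stimulated KO libraries lay above all 3 in medium for 18 members and below them for 3, where 34.1% and 35.9% of all genes did so. In WT clones it was 7 above and 4 below, where 25.2% of all genes did so in each direction.

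**Figure D2:**
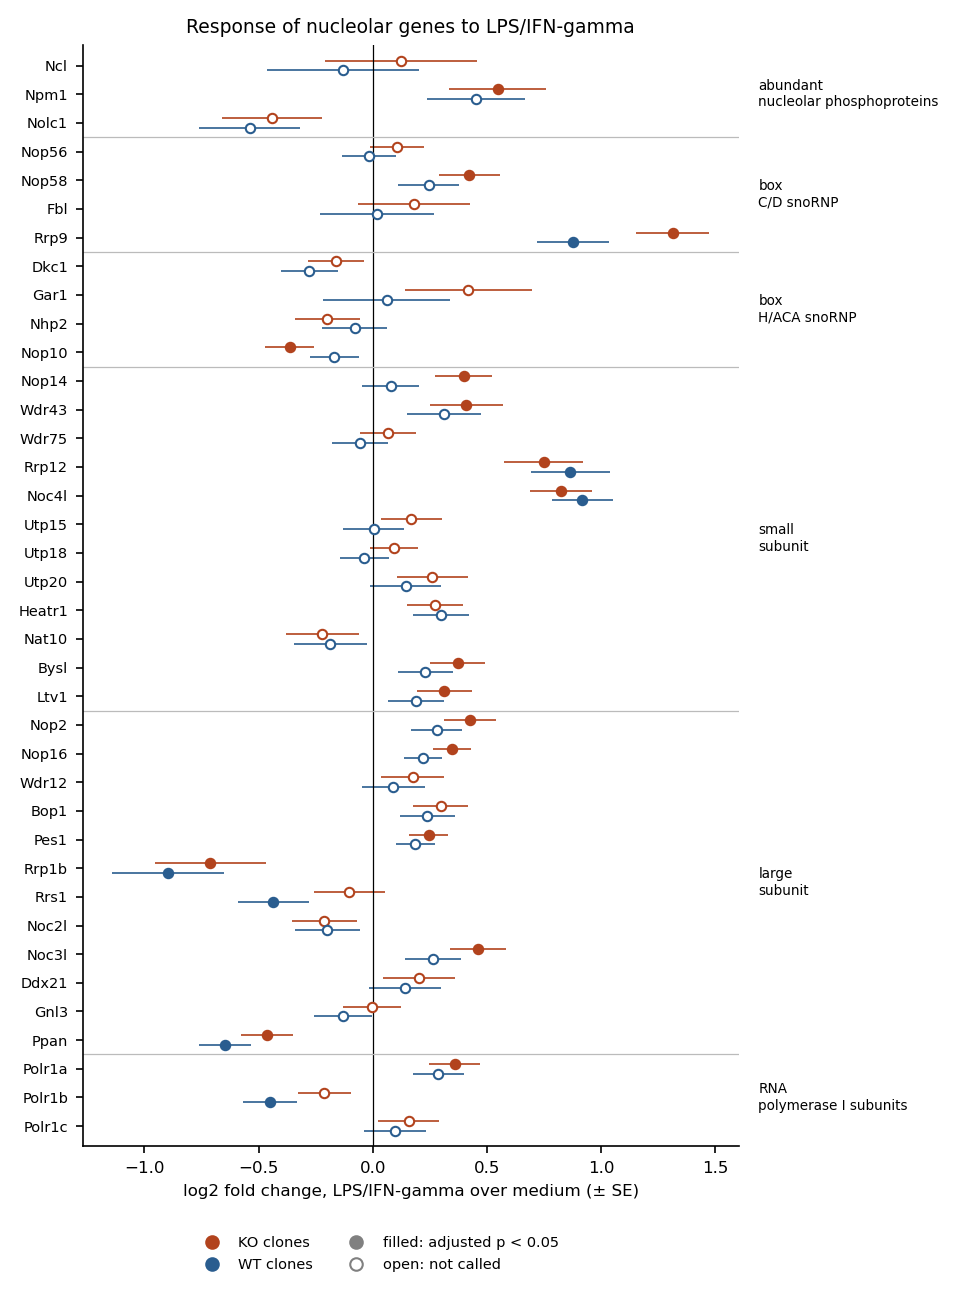
Log2 fold change of stimulated over medium (± SE) of the 38 genes other than Myc, in KO clones (red, upper) and WT clones (blue, lower), with filled points for an adjusted p below 0.05. Rrp9, Rrp12 and Noc4l are highest in both genotypes, between 0.75 and 1.31, Rrp1b and Ppan are lowest, and most other genes lie within 0.5 of 0.

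Among the abundant nucleolar phosphoproteins, the histone chaperone gene Npm1 rose in KO clones, and the snoRNP chaperone gene Nolc1 ran the other way without passing the test. Npm1 stood at 1639, 1495 and 1168 CPM in stimulated KO clones, against 1065, 1018 and 860.0 CPM in KO clones in medium. It stood at 1089, 869 and 1395 CPM in stimulated WT clones, against 754, 659.9 and 1038 CPM in WT clones in medium. Every clone of either genotype had more Npm1 when stimulated. The log2 fold change was 0.55 ± 0.21, adjusted p = 0.0487 in KO clones, and 0.45 ± 0.21, adjusted p = 0.103 in WT clones, where the clone block gave adjusted p = 0.000783. Leaving out 1 library lost the KO call in 5 of 6 cases, all but the stimulated library of KO 2, at adjusted p = 0.0694 to 0.159. Of 50-base windows of its longest coding transcript, 40.9% also occur in other genes, so reads could be shared with these copies and the counts are uncertain.

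Nolc1 stood at 303, 317 and 246 CPM in stimulated KO clones, against 405, 467 and 302 CPM in KO clones in medium. It stood at 347, 227 and 219 CPM in stimulated WT clones, against 401, 305 and 444 CPM in WT clones in medium. All 6 clones had less of it when stimulated, with log2 fold changes of -0.44 ± 0.22, adjusted p = 0.113 in KO clones and -0.54 ± 0.22, adjusted p = 0.0657 in WT clones. The clone block gave adjusted p = 0.0226 in KO and 0.00759 in WT clones. Ncl, the gene of nucleolin, which binds nascent ribosomal RNA, stood at 966, 1022 and 565 CPM in stimulated KO clones, against 949.9, 942 and 454 CPM in KO clones in medium, with KO 2 lowest in both conditions. It stood at 1180.0, 701 and 873 CPM in stimulated WT clones, against 1243, 722 and 1051 CPM in WT clones in medium, and was called in neither genotype (0.12 ± 0.33 in KO clones, -0.13 ± 0.33 in WT clones).

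Of the genes for box C/D snoRNP proteins, 2 of 4 rose in KO clones and 1 of 4 in WT clones, where 26.7% and 23.8% of all genes did. The median log2 fold change of the 4 was 0.30 in KO and 0.13 in WT clones, and -0.077 and -0.23 under library totals. Library totals called 1 higher and 0 lower in KO clones (14.7% and 45.1% of all genes). In WT clones it was 1 higher and 1 lower (13.0% and 42.8% of all genes). Rrp9 encodes a protein particular to the U3 snoRNP, which acts in the early cuts of the precursor. It stood at 164, 172 and 185 CPM in stimulated KO clones, against 66.1, 72.1 and 71.1 CPM in KO clones in medium, and at 124, 142 and 132 CPM in stimulated WT clones, against 72.4, 53.3 and 90.9 CPM in WT clones in medium. The groups did not overlap in either genotype, and Rrp9 had the highest log2 fold change of the 38 genes in KO clones (1.31 ± 0.16, adjusted p = 5.87e-05), with 0.88 ± 0.16, adjusted p = 0.00102 in WT clones. Nop58, a core scaffold protein, had the highest CPM of this group. It stood at 661, 608 and 564 CPM in stimulated KO clones, against 450.0, 468 and 449 CPM in KO clones in medium and rose there (0.42 ± 0.13, adjusted p = 0.0197), a call lost without the stimulated library of KO 1A (adjusted p = 0.0771) or the medium library of KO 1A (0.0582) or KO 2 (0.0532). Its values were 531, 446 and 455 CPM in stimulated WT clones, against 377, 345 and 485 CPM in WT clones in medium, where it was not called (0.25 ± 0.13, adjusted p = 0.152).

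The partner scaffold gene Nop56 was called in neither response. It stood at 326, 336 and 342 CPM in stimulated KO clones, against 313, 319 and 300.1 CPM in KO clones in medium, and at 305, 286 and 248 CPM in stimulated WT clones, against 272, 245 and 330.2 CPM in WT clones in medium. The log2 fold changes were 0.11 ± 0.12 in KO clones and -0.015 ± 0.12 in WT clones. Fbl, the gene of the methyltransferase fibrillarin, was listed at only 4.47 to 9.48 CPM per library and was not called. Per kilobase it reached 1.71 CPM, against 73.7 CPM for Nop56 and 45.2 CPM for Nop58. Other genes share 73.0% of the 50-base windows of Fbl and 37.6% of those of Nop56, and the part of such copies in these levels was not tested.

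The box H/ACA genes, which encode the pseudouridine synthase complex, included no gene called higher and 1 called lower, in KO clones. Of all genes 27.6% were called lower in KO clones and 23.6% in WT clones. Under library totals 3 of 4 were called lower in each genotype, where 45.1% of all genes were in KO and 42.8% in WT clones. The median log2 fold change of the 4 was -0.18 in KO and -0.12 in WT clones, and -0.56 and -0.48 under library totals. Nop10, a small core protein, stood at 85.2, 82.5 and 71.5 CPM in stimulated KO clones, against 104, 98.8 and 105 CPM in KO clones in medium, with no overlap, and fell there (-0.36 ± 0.11, adjusted p = 0.0138). Without the stimulated library of KO 2 the change was -0.29, adjusted p = 0.0597. It stood at 79.8, 82.4 and 85.1 CPM in stimulated WT clones, against 85.2, 85.8 and 107 CPM in WT clones in medium, with all 3 clones lower (-0.17 ± 0.11, adjusted p = 0.218).

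Dkc1, the gene of the synthase dyskerin, had the highest CPM of the 4. It stood at 256, 259.6 and 214 CPM in stimulated KO clones, against 270.5, 286 and 259 CPM in KO clones in medium and at 230.5, 195 and 186 CPM in stimulated WT clones, against 235, 224 and 284 CPM in WT clones in medium. It was lower in all 6 clones, though not called (-0.16 ± 0.12 in KO clones, -0.28 ± 0.12 in WT clones). Gar1, another core protein, was the only member of the complex with a positive log2 fold change in both. It stood at 30.5, 33.9 and 21.4 CPM in stimulated KO clones, against 23.4, 27.2 and 13.6 CPM in KO clones in medium, higher in 3 of 3 clones (0.42 ± 0.28, adjusted p = 0.222, or adjusted p = 0.00541 with the clone block). It stood at 23.8, 16.7 and 27.3 CPM in stimulated WT clones, against 21.7, 17.6 and 25.7 CPM in WT clones in medium, and was not called (0.061 ± 0.28). Nhp2, the RNA-binding protein of the complex, was not called in either (-0.20 ± 0.14 in KO clones, -0.078 ± 0.14 in WT clones).

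Small subunit factors were called in 1 direction. Of 12 genes 6 were called higher in KO clones and 2 in WT clones, where 26.7% and 23.8% of all genes were. None was called lower, where 27.6% and 23.6% of all genes were. But under library totals 1 was higher and 1 lower in KO clones (14.7% and 45.1% of all genes). In WT clones library totals called 2 higher and 3 lower (13.0% and 42.8% of all genes). The median of the 12 was 0.29 in KO and 0.17 in WT clones, and -0.085 and -0.19 under library totals. Noc4l, whose yeast counterpart binds Nop14, stood at 121, 114 and 94.3 CPM in stimulated KO clones, against 65.1, 63.9 and 56.9 CPM in KO clones in medium. It stood at 125, 115 and 119.6 CPM in stimulated WT clones, against 67.0, 51.3 and 71.5 CPM in WT clones in medium. The groups did not overlap in either genotype, and Noc4l rose in KO clones (0.83 ± 0.13, adjusted p = 0.000433) and in WT clones (0.92 ± 0.13, adjusted p = 0.000285). The KO minus WT difference of these changes was -0.094 ± 0.19. Rrp12, which accompanies the small subunit on its way out of the nucleus, also rose in both (0.75 ± 0.17, adjusted p = 0.00391 in KO clones, 0.87 ± 0.17, adjusted p = 0.00204 in WT clones). It stood at 175, 166 and 148 CPM in stimulated KO clones, against 99.0, 106 and 85.9 CPM in KO clones in medium, and at 162, 196 and 137 CPM in stimulated WT clones, against 98.2, 68.3 and 105 CPM in WT clones in medium, again with no overlap. Under library totals its KO change was 0.37, adjusted p = 0.1.

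Wdr43, part of a complex that joins the precursor while it is made, had the highest CPM of the small subunit genes. It stood at 539.7, 525 and 491 CPM in stimulated KO clones, against 379, 421 and 371 CPM in KO clones in medium and was called there (0.41 ± 0.16, adjusted p = 0.0498), just inside the limit. It stood at 542, 405 and 469.6 CPM in stimulated WT clones, against 357, 306 and 478 CPM in WT clones in medium, where WT 3 hardly differed between conditions (0.31 ± 0.16, adjusted p = 0.132, or adjusted p = 0.0316 with the clone block). Nop14 (0.40 ± 0.13), which acts in early precursors, and Bysl (0.37 ± 0.12) and Ltv1 (0.31 ± 0.12), which act in later ones, were the others called higher in KO clones, with 0.078 ± 0.13, 0.23 ± 0.12 and 0.19 ± 0.12 in WT clones, not called. Leaving out any of the 6 KO libraries lost the KO call of Wdr43 (adjusted p = 0.0649 to 0.126), and any but KO 1B in medium that of Ltv1 (0.0776 to 0.155). That of Nop14 was lost without KO 1A stimulated (0.066), KO 1A in medium (0.0546) or KO 2 in medium (0.0843). That of Bysl was lost without KO 1A (0.0785) or 1B (0.0532) stimulated or KO 2 in medium (0.0911). Bysl shares 8.2% of its 50-base windows with other genes, among them Ccnd3.

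The remaining small subunit genes were not called. Heatr1, which belongs to the same complex as Wdr43, was higher in all 6 clones (0.27 ± 0.12 in KO clones, 0.30 ± 0.12 in WT clones), and the clone block gave adjusted p = 0.0409 in KO and 0.0261 in WT clones. Nat10, which acetylates ribosomal RNA, had a negative change in both genotypes, unlike most of the group. It stood at 129, 137 and 106 CPM in stimulated KO clones, against 154, 162 and 116 CPM in KO clones in medium, lower in 3 of 3 clones (-0.22 ± 0.16), and at 121, 127 and 96.9 CPM in stimulated WT clones, against 141, 114 and 137 CPM in WT clones in medium (-0.19 ± 0.16). Wdr75, of the same complex as Wdr43, stood at 244, 234 and 215 CPM in stimulated KO clones, against 215, 229.7 and 216 CPM in KO clones in medium (0.067 ± 0.12). It stood at 231, 207 and 169 CPM in stimulated WT clones, against 204, 192 and 236 CPM in WT clones in medium (-0.056 ± 0.12), lower under stimulation in WT 3 and higher in the other WT clones. Utp18, of the U3-linked complexes, stood at 155, 145 and 131 CPM in stimulated KO clones, against 137, 133 and 134 CPM in KO clones in medium (0.094 ± 0.11). It stood at 132, 122 and 122 CPM in stimulated WT clones, against 126, 112 and 147 CPM in WT clones in medium (-0.037 ± 0.11), again lower in WT 3 and higher in the other WT clones. Utp15, another partner of Wdr43, and Utp20, a large scaffold protein, had 0.17 ± 0.13 and 0.26 ± 0.15 in KO clones, and 0.0039 ± 0.13 and 0.14 ± 0.15 in WT clones.

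Of 12 large subunit factors 4 were called higher and 2 lower in KO clones, where 26.7% and 27.6% of all genes were. In WT clones 0 were called higher and 3 lower, where 23.8% and 23.6% of all genes were. Under library totals 0 were higher and 5 lower in each genotype. Library totals called 14.7% of all genes higher and 45.1% lower in KO clones, and 13.0% and 42.8% in WT clones. The median of the 12 was 0.19 in KO and 0.12 in WT clones, and -0.19 and -0.24 under library totals. Nop2, which methylates ribosomal RNA, stood at 415, 406 and 413 CPM in stimulated KO clones, against 294, 315 and 309 CPM in KO clones in medium, with no overlap (0.43 ± 0.11, adjusted p = 0.00804). The Nop2 call was lost with KO 1A and 1B summed (0.43, adjusted p = 0.0572) and under library totals (0.048, adjusted p = 0.746). It stood at 388, 396 and 308 CPM in stimulated WT clones, against 302, 269.5 and 327 CPM in WT clones in medium, where the groups overlapped through WT 3 (0.28 ± 0.11, adjusted p = 0.0605). Noc3l, whose yeast counterpart helps carry large subunit precursors through the nucleus, stood at 131, 123 and 111 CPM in stimulated KO clones, against 84.7, 99.9 and 80.9 CPM in KO clones in medium (0.46 ± 0.12, adjusted p = 0.00852). Its values were 110.1, 112 and 93.1 CPM in stimulated WT clones, against 84.9, 78.6 and 98.6 CPM in WT clones in medium (0.27 ± 0.12, adjusted p = 0.0977). Nop16 (0.35 ± 0.084) and Pes1 (0.24 ± 0.087) were also called higher in KO clones, with 0.22 ± 0.084 and 0.19 ± 0.087 in WT clones, where Nop16 was called with the clone block alone (adjusted p = 0.0468). The Pes1 call was lost without any of the 6 KO libraries (adjusted p = 0.0615 to 0.0981), and other genes share 24.1% of its 50-base windows. Nop16 is a nucleolar protein of large subunit precursors, and Pes1 acts in a complex with Bop1 and Wdr12, whose changes were 0.30 ± 0.12 (adjusted p = 0.0389 with the clone block) and 0.17 ± 0.14 in KO clones, and 0.24 ± 0.12 and 0.091 ± 0.14 in WT clones.

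Rrp1b and Ppan fell in both genotypes. Rrp1b, a relative of yeast Rrp1, stood at 101, 98.0 and 81.0 CPM in stimulated KO clones, against 154, 164 and 141 CPM in KO clones in medium. It stood at 102, 51.6 and 57.5 CPM in stimulated WT clones, against 153, 97.5 and 141 CPM in WT clones in medium, where stimulated WT 1 had more than WT 2 in medium. The log2 fold change was -0.71 ± 0.24, adjusted p = 0.029 in KO clones and -0.90 ± 0.24, adjusted p = 0.0117 in WT clones, lower in 6 of 6 clones, and the KO call was lost without any KO library but that of KO 2 in medium (adjusted p = 0.0516 to 0.0963). Ppan, whose yeast counterparts act in early large subunit particles, stood at 111, 115 and 103 CPM in stimulated KO clones, against 156, 163 and 134 CPM in KO clones in medium. It stood at 92.0, 98.8 and 77.8 CPM in stimulated WT clones, against 146, 128 and 146 CPM in WT clones in medium. No stimulated library reached a medium library of its genotype (-0.46 ± 0.11, adjusted p = 0.00542 in KO clones, -0.65 ± 0.11, adjusted p = 0.000919 in WT clones).

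Rrs1, whose yeast counterpart helps bring the 5S ribonucleoprotein into the large subunit, stood at 54.8, 59.3 and 51.8 CPM in stimulated KO clones, against 65.0, 64.8 and 48.2 CPM in KO clones in medium, with overlap (-0.10 ± 0.15, adjusted p = 0.598). It stood at 43.3, 54.9 and 36.4 CPM in stimulated WT clones, against 59.6, 61.3 and 60.8 CPM in WT clones in medium, with none, and fell there (-0.43 ± 0.16, adjusted p = 0.0389), a call lost without any WT library but that of stimulated WT 2 (adjusted p = 0.0753 to 0.136). The KO and WT changes of Rrs1 differed by 0.33 ± 0.22, not called.

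Ddx21, an RNA helicase and the large subunit gene with the highest CPM, stood at 888, 939.8 and 734 CPM in stimulated KO clones, against 786, 851 and 587 CPM in KO clones in medium (0.20 ± 0.16), and at 776, 677 and 704 CPM in stimulated WT clones, against 661, 566 and 729.9 CPM in WT clones in medium (0.14 ± 0.16), not called. Noc2l, the partner of Noc3l, stood at 242, 242 and 223 CPM in stimulated KO clones, against 276, 301 and 241 CPM in KO clones in medium (-0.21 ± 0.14), and at 298, 237 and 229.6 CPM in stimulated WT clones, against 289.8, 248 and 341 CPM in WT clones in medium (-0.20 ± 0.14), not called. Its exons overlap Samd11 on the opposite strand over 20.9% of their length, and strand use in counting was not given in the sources used here. Gnl3, the gene of nucleostemin, was called in neither genotype. It stood at 328, 303 and 268 CPM in stimulated KO clones, against 309.7, 307 and 284 CPM in KO clones in medium (-0.0023 ± 0.13), and at 279.5, 253 and 214 CPM in stimulated WT clones, against 269, 244 and 305 CPM in WT clones in medium (-0.13 ± 0.13).

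The upstream windows of Rrp9 and Noc4l, called higher in both genotypes, and of Ppan, called lower in both, are shown to set promoters of genes with opposite responses side by side (RefSeq, GRCm38.p6, 250 bases before the start, 5′ to 3′ on the gene's strand). Capitals mark the cyclic AMP response element letters TGACGTCA, a palindrome that does not overlap the E-box matches above.
Rrp9: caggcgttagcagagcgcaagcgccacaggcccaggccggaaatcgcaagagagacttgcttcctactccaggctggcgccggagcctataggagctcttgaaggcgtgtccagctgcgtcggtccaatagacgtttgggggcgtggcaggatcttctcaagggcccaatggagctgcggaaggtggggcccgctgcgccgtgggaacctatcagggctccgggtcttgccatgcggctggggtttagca
Noc4l: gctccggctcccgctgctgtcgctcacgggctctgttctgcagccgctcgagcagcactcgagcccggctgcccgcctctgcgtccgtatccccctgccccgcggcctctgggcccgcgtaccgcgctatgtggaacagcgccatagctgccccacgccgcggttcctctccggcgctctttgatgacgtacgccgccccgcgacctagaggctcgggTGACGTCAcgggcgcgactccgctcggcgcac
Ppan: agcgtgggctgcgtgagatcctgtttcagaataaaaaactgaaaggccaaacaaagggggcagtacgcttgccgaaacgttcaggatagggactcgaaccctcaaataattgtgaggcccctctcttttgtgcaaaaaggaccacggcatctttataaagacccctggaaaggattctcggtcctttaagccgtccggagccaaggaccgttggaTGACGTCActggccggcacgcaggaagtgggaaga
They lie at chr9:106477059-106477308 (plus strand), chr5:110653383-110653632 (minus strand) and chr9:20887925-20888174 (plus strand). GENCODE begins Rrp9 at chr9:106475963, so the Rrp9 window lies inside that gene as GENCODE draws it. It begins Noc4l at chr5:110653417 on the minus strand. The last bases of the Noc4l window, with the marked letters, thus lie inside that gene as GENCODE draws it. Which start these cells use was not tested. TGACGTCA was searched for after these windows had been read. It was in the 300-base windows of 2 of 33 members (6.06%), Noc4l and Ppan, against 3.86% of tested genes with a window. The interferon-gamma activated site TTCNNNGAA, searched on both strands, was in those of 4 of 33 (12.1%), Noc4l, Nop58, Polr1b and Utp15, against 8.3% of the tested genes. GC content before the start had a median of 57.6% over the 33 genes, with 41.2% to 81.6% as its range, against 60.0% for tested genes.

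Of the RNA polymerase I subunits, the genes of the catalytic pair had changes of opposite sign with TMM factors, but were not both called in either genotype. The median of the 3 subunit genes was 0.16 in KO and 0.098 in WT clones, and -0.22 and -0.26 under library totals. Polr1a, the largest subunit, stood at 321, 315 and 286 CPM in stimulated KO clones, against 251, 257 and 211 CPM in KO clones in medium, higher in 3 of 3 clones and called (0.36 ± 0.11, adjusted p = 0.0183). That call was lost without KO 1A (adjusted p = 0.0641) or 1B (0.0549) stimulated or KO 2 in medium (0.0813), and under library totals the KO change was -0.019. It stood at 258, 262 and 227 CPM in stimulated WT clones, against 203, 185 and 225 CPM in WT clones in medium, higher in 3 of 3 clones (0.29 ± 0.11, adjusted p = 0.054, or adjusted p = 0.0289 with the clone block). Polr1b, the second catalytic subunit, stood at 83.5, 78.5 and 69.0 CPM in stimulated KO clones, against 94.5, 90.8 and 82.1 CPM in KO clones in medium. It stood at 58.3, 56.7 and 47.3 CPM in stimulated WT clones, against 81.3, 68.0 and 72.3 CPM in WT clones in medium. It was lower in all 6 clones, with log2 fold changes of -0.21 ± 0.12, adjusted p = 0.144 in KO clones and -0.45 ± 0.12, adjusted p = 0.00864 in WT clones. Polr1c, which RNA polymerase III also uses, was called in neither (0.16 ± 0.13 in KO clones, 0.098 ± 0.13 in WT clones).

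Between genotypes 1 of the 39 genes passed the test. In medium 0 members were called by edgeR, where 1.21% of all genes were. The members with an unadjusted p below 0.05 were 2, Myc and Polr1b, and DESeq2 called 1, Myc. Under stimulation 1 member was called, higher, where 4.64% of all genes were called and 1.13% were higher. That gene was Polr1b. Its KO values, between 69.0 and 83.5 CPM under stimulation, lay above the WT values, between 47.3 and 58.3 CPM. In medium KO clones had 82.1 to 94.5 CPM and WT clones 68.0 to 81.3 CPM. Neither pair of groups overlapped, and the KO over WT log2 fold change was 0.51 ± 0.12, adjusted p = 0.0344 under stimulation and 0.27 ± 0.12, adjusted p = 0.318 in medium.

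The Polr1b call rested on few libraries. Without the stimulated library of KO 1A it was 0.45 (adjusted p = 0.17), of KO 1B 0.50 (0.125), of WT 2 0.54 (0.0624) and of WT 3 0.42 (0.0639). With KO 1A and 1B summed it was 0.48 (adjusted p = 0.211), and no member was called, where 0.0971% of all genes were higher. Polr1b lies on the plus strand at chr2:129100995-129126594 (GRCm38).

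Most other differences under stimulation were positive but did not pass the test. The KO over WT log2 fold change was positive for 31 of 39 genes under stimulation (median 0.20) and for 29 of 39 in medium (median 0.082), against medians of -0.02 and -0.0086 over all genes. Of all 12231 genes, 5807 were positive under stimulation and 5894 in medium. The members other than Myc shared shifts by clone, so these are not counts of independent cases. All 3 stimulated KO libraries lay above all 3 stimulated WT libraries for 10 genes, Nop56, Nop58, Rrp9, Nop14, Utp15, Nop2, Bop1, Ppan, Polr1a and Polr1b, and below them for none, where 11.3% and 12.7% of all genes did so. In medium it was 1 gene above (Polr1b) and 1 below (Myc), where 9.5% and 11.4% of all genes did so. Examples under stimulation are Nop58 (0.36 ± 0.13, adjusted p = 0.158), Utp15 (0.37 ± 0.13, adjusted p = 0.145), Polr1a (0.30 ± 0.11, adjusted p = 0.151) and Rrp9 (0.39 ± 0.16, adjusted p = 0.186).

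**Figure D3:**
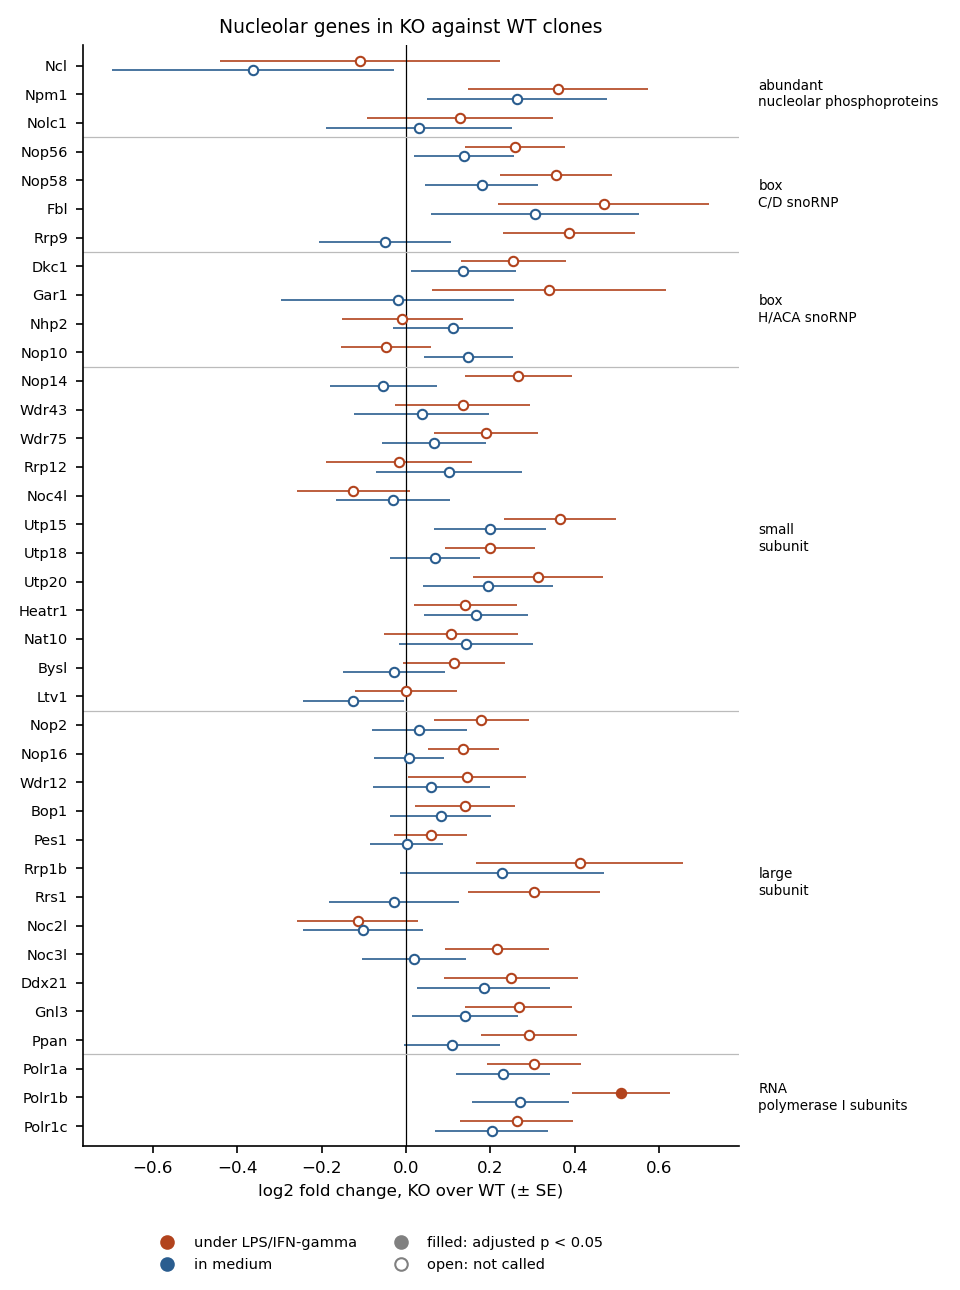
Log2 fold change of KO over WT (± SE) of the 38 genes other than Myc, under stimulation (red, upper) and in medium (blue, lower), with filled points for an adjusted p below 0.05. Polr1b under stimulation, at 0.51, is the only filled point, and most points under stimulation lie above 0.

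Gene by gene the KO and WT responses ran alike. Over the 38 genes other than Myc the 2 log2 fold changes had a Pearson correlation of 0.941 and a Spearman correlation of 0.931, against 0.947 and 0.929 over all 12231 genes. They had the same sign in 34 of 38 (89.5%, against 90.1% of all genes). These responses share no library, but genes are not independent points and no p is given. The KO change was the larger in 31 of 38 (81.6%), against 47.9% of all genes. The largest excess among the 38 was that of Rrp9 (0.44 ± 0.22), and the median was 0.12, with no gene called. The 38 genes shared shifts by clone, so the 31 are not independent cases.

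Clones shifted the whole set. In medium WT 2 had the lowest level of the 3 WT clones for 35 of 38 genes (92.1%) and WT 3 the highest for 31 (81.6%), where this held for 36.6% and 35.6% of all tested genes. KO 2 was the lowest KO clone for 32 of 38 genes (84.2%) when stimulated and for 31 (81.6%) in medium, where this held for 38.9% and 37.4% of all genes. Summed over the 39 genes, the level was 10790, 10590 and 8952 CPM in stimulated KO clones, against 9115, 9369 and 7658 CPM in KO clones in medium. It was 9692, 8298 and 8608 CPM in stimulated WT clones, against 8482, 6948 and 9487 CPM in WT clones in medium.

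The sum was higher under stimulation in every KO clone and in WT 1 and 2, and lower in WT 3. The count of WT calls moved with these libraries. Without the medium library of WT 3, 11 members were called higher in WT clones, where 21.6% of all genes were, and without its stimulated library 5 (20.9%). In KO clones 15 were called higher, against 7 without stimulated KO 1A (23.2% of all genes) or without KO 2 in medium (24.3%) and 9 without stimulated KO 1B (24.0%) or without KO 1A in medium (22.4%). The count of 3 called lower was 1 without stimulated KO 2 (23.7% of all genes). Mitochondrially encoded genes, a measure of RNA quality, took 1.24% of counts in KO 2 when stimulated and 1.3% in medium, the lowest shares among the 12 libraries, and their part in its low levels was not tested.

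**Figure D4:**
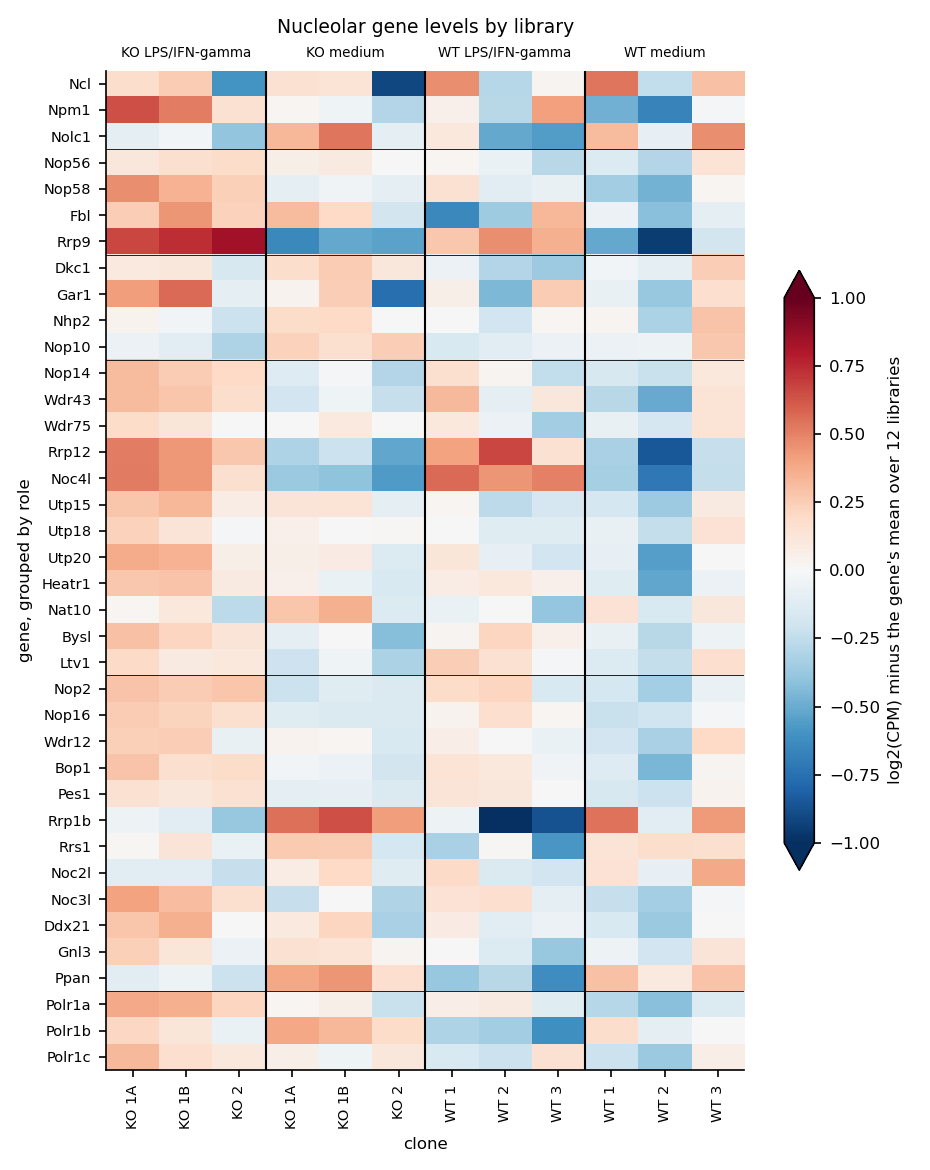
Level of each of the 38 genes other than Myc in the 12 libraries, as log2 CPM minus the mean of that gene over all libraries (red above, blue below), with genes in rows by role. WT 2 in medium is below the mean in nearly all rows, and Rrp9, Rrp12 and Noc4l are red in both stimulated groups.

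Levels of the 39 genes spread widely. Per kilobase of exon, averaged over the 12 libraries, Npm1 was highest (408 CPM), followed by the H/ACA gene Nhp2 (159.8), Ddx21 (143) and Nop2 (125). The lowest were Myc (2.95) and Fbl (1.71). Exon length here and above joins every annotated exon of a gene, so genes whose transcripts are shorter than that are set too low. Ncl, with 10188 such bases, had 889 CPM but 87.3 CPM per kilobase. Nhp2, with 1146 bases, had 183 CPM, so the order per kilobase need not be that of transcript abundance. By mean CPM, Npm1 stood above 99.5% and Ncl above 99.2% of tested genes, and Myc above 24.8%.

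Beyond the 39 genes, 140 other genes of ribosome biogenesis were measured. In either direction 46.4% of them were called in KO clones and 37.1% in WT clones, against 54.3% and 47.4% of all genes. In KO clones 53 were called higher and 12 lower (median log2 fold change 0.23), and in WT clones 37 higher and 15 lower (median 0.13), where 26.7% and 27.6% of all genes were called higher and lower in KO clones, and 23.8% and 23.6% in WT clones. These shares also stand behind the TMM counts of the lists that follow. Behind their counts under library totals stand 14.7% of all genes higher and 45.1% lower in KO clones, and 13.0% and 42.8% in WT clones. Behind their clone block counts stand 32.1% and 34.0% in KO clones, and 29.8% and 31.4% in WT clones. Under library totals the medians of the 140 genes were -0.15 and -0.23, with 15 higher and 42 lower in KO clones and 11 higher and 52 lower in WT clones. With the clone block 65 of the 140 were higher and 13 lower in KO clones, and 51 higher and 17 lower in WT clones. In KO over WT clones 2 were called, both higher and both under stimulation. They were Nip7 (0.43 ± 0.10, adjusted p = 0.0403) and Urb2 (0.55 ± 0.13, adjusted p = 0.0358), both of the large subunit.

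Among 46 other small subunit factors 18 were higher and 3 lower in KO clones, and 13 higher and 3 lower in WT clones, but under library totals 6 higher and 10 lower, and 4 higher and 14 lower. The clone block called 23 higher and 3 lower in KO clones, and 17 higher and 3 lower in WT clones. The kinase gene Riok3 had the largest rise, to 303 ± 23.4 CPM in stimulated KO clones against 84.2 ± 9.56 CPM in medium, and 323 ± 61.0 CPM in stimulated WT clones against 104 ± 12.9 CPM in medium (SD, n = 3 each). Nol10 rose by 1.14 ± 0.16 in KO and 1.00 ± 0.16 in WT clones on the log2 scale. Imp3, a partner of the U3 snoRNP, fell in both (-0.74 ± 0.091 in KO clones, -0.89 ± 0.091 in WT clones).

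Among 52 other large subunit factors 25 were higher and 1 lower in KO clones, and 15 higher and 3 lower in WT clones. With the clone block it was 29 higher and 2 lower in KO clones, and 21 higher and 5 lower in WT clones. Under library totals it was 8 higher and 12 lower in KO clones, and 6 higher and 17 lower in WT clones. Eif6, which keeps the large subunit from joining too early, rose by 1.21 ± 0.11 in KO and 0.94 ± 0.11 in WT clones. The helicase gene Ddx24 rose by 1.53 ± 0.14 and 1.07 ± 0.14, Ccdc86 by 1.10 ± 0.12 and 1.26 ± 0.12, and Rsl24d1 by 0.87 ± 0.11 and 0.88 ± 0.11, each in KO and then in WT clones.

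The other RNA polymerase I machinery had 4 of 18 genes higher and 3 lower in each genotype. With the clone block 6 were higher in KO and 7 in WT clones, with 3 lower in each. Under library totals 0 were higher, with 9 lower in KO and 8 lower in WT clones. Ubtf, which opens ribosomal DNA for transcription, fell to 155 ± 19.8 CPM in stimulated KO clones, against 327 ± 32.6 CPM in medium, and to 160.5 ± 19.6 CPM in stimulated WT clones, against 306 ± 28.4 CPM in medium (SD, n = 3 each). Cd3eap, a polymerase subunit, fell as well (-0.89 ± 0.17 in KO clones, -1.0 ± 0.17 in WT clones). Rrn3, an initiation factor, rose by 0.42 ± 0.092 in KO and 0.25 ± 0.092 in WT clones, and the subunit gene Znrd1 by 0.56 ± 0.19 and 0.63 ± 0.19.

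Of 11 snoRNP assembly genes 4 were higher and 2 lower in KO clones, and 3 higher and 2 lower in WT clones, but under library totals 1 higher and 2 lower, and 1 higher and 4 lower. The clone block called 5 higher and 2 lower in KO clones, and 4 higher and 2 lower in WT clones. Tgs1, which methylates the caps of small nuclear and nucleolar RNAs, rose by 0.93 ± 0.18 in KO and 0.64 ± 0.18 in WT clones, and Nufip1 by 0.42 ± 0.12 and 0.76 ± 0.12. Coil, the gene of coilin, fell in both (-0.70 ± 0.11 in KO clones, -0.48 ± 0.11 in WT clones). Of 13 genes of the RNA exosome, which trims ribosomal RNA, 2 were higher and 3 lower in KO clones, and 2 higher and 4 lower in WT clones, but under library totals 0 were higher and 9 lower in each. Mphosph6 was higher in both (0.75 ± 0.14 in KO clones, 0.58 ± 0.14 in WT clones), and Exosc5 (-0.56 ± 0.13, -0.49 ± 0.13) and Exosc7 (-0.77 ± 0.17, -0.71 ± 0.17) lower in both. Exosc2 was not called in KO clones (-0.22 ± 0.12) and was called lower in WT clones (-0.46 ± 0.12).

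Of 13 partners and antagonists of Myc, 4 were higher and 4 lower in KO clones, and 3 higher and 5 lower in WT clones, where the clone block called 5 higher. Under library totals it was 3 higher and 7 lower in KO clones, and 2 higher and 8 lower in WT clones. Max, the shared partner, rose to 219.8 ± 11.6 CPM in stimulated KO clones, against 89.2 ± 13.4 CPM in medium, and to 237 ± 28.2 CPM in stimulated WT clones, against 89.0 ± 8.48 CPM in medium (SD, n = 3 each). Mxd1, which competes with Myc for Max, rose by 3.62 ± 0.47 in KO and 4.67 ± 0.49 in WT clones. Its relative Mxd3 fell in both (-3.88 ± 0.27 in KO clones, -2.71 ± 0.24 in WT clones).

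Of 36 other growth genes linked to Myc, 11 were higher and 11 lower in KO clones, and 8 higher and 10 lower in WT clones, but under library totals 4 were higher and 19 lower in KO clones, and 2 higher and 18 lower in WT clones. The clone block called 14 higher and 13 lower in KO clones, and 11 higher and 15 lower in WT clones. It called 1 of them for the difference between responses, where 0.327% of all genes were called. Odc1, the gene of the entry enzyme of polyamine synthesis, rose most, by 4.19 ± 0.50, adjusted p = 6.59e-05 in KO clones and 3.63 ± 0.48, adjusted p = 0.00019 in WT clones. Eif4a1, a translation helicase gene, rose by 0.69 ± 0.097 and 0.59 ± 0.097. The nucleotide synthesis genes Prps2 (-2.09 ± 0.18 in KO clones, -1.45 ± 0.18 in WT clones) and Umps (-0.84 ± 0.16, -1.05 ± 0.16) fell.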

How the data were processed

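Gene counts of 12 libraries of RAW264.7 clones were read from 1 table that the authors deposited as whole-number counts per Ensembl gene, of which 66 were written in exponent form. The submitters' processing notes name the builds mm10 and GRCm38 and the tool DESeq2. The aligner, the counting tool and strand use were not given in the sources used here, so genes with near-identical copies or overlapping neighbours are called uncertain above. GENCODE M21 (GRCm38) named 12305 genes.

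The 39 members, the other gene lists and the tests were chosen with earlier results of these data known. Values per library are given for Myc, and in each role for the gene with the highest mean CPM, those with the highest and lowest change per response, those whose direction differed from most of the role and those called between genotypes. From the other lists the 3 genes with the smallest p per response and those called between genotypes are named.

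edgeR 4.0.16 in R 4.3.3 fitted 4 group means (filterByExpr, TMM, robust quasi-likelihood, 8 residual degrees of freedom). Levels are CPM on TMM-scaled totals. Genes with a Benjamini-Hochberg adjusted p below 0.05 over 12231 genes were called, and errors of log2 fold changes are standard errors. P-values measure the spread between clones within groups, and KO 1A and 1B may not be independent.

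The labels give each clone a library in each condition, so clones pair libraries. Deviations from group means correlated at 0.62 to 0.70 within WT clones and at 0.287 to 0.508 within KO clones. The medium library of KO 1A correlated at 0.321 with its own stimulated library and at up to 0.274 with that of another KO clone. For KO 1B these values were 0.287 and 0.182, so 1A and 1B were barely told apart. For the remaining clones the second value was negative. The clone block left 4 residual degrees of freedom. It is printed where it changes a call of a member or a count of the lists of other ribosome and growth genes. Alternatives were RLE factors, library totals, DESeq2 1.42.0, no low-count filter, summed KO 1A and 1B, and leaving out each library. Counts of shared 50-base windows used GENCODE transcripts. Depth is the total count per library, from 10624591 to 14388590.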

Additional observations from a re-analysis of the deposited data

Results flagged for a closer look

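Ncl, the gene of nucleolin, was the only member whose clones all moved one way in one genotype and the other way in the other. It was higher under stimulation in 3 of 3 KO clones and in 0 of 3 WT clones. The KO response minus the WT response was 0.25 ± 0.47 on the log2 scale. A test of that difference gave an unadjusted p of 0.601 and an adjusted p of 1.0 in the edgeR fit, and an adjusted p of 0.427 with the clone block, so the difference was not called.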

How the results depend on the processing

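The log2 fold changes of called genes and of Myc, 30 in all, were recomputed under other settings. RLE size factors changed the side of the limit for none of the 30, DESeq2 for 1 (Myc in medium, -3.58), leaving out the low-count filter for 1 (Wdr43) and the clone block for none of 27. Library totals alone lost 7 calls with the sign kept and, in the KO response, 5 more with the value turned below 0, for Bysl (-0.0066), Ltv1 (-0.065), Nop16 (-0.031), Pes1 (-0.13) and Polr1a (-0.019). Summing KO 1A and 1B lost 13 calls of 30. Counts of members called in KO clones were 3 higher and 11 lower with library totals, and 6 and 1 with KO 1A and 1B summed, against 15 and 3. In WT clones 5 were higher with RLE factors, 8 with DESeq2 and 8 with the clone block, against 3, and 14 were lower with library totals, against 4. KO against WT in medium had 1 member lower with DESeq2, and under stimulation 0 higher with KO 1A and 1B summed. Leaving out each library in turn gave 7 to 12 higher and 1 to 4 lower in KO clones, 3 to 11 higher and 3 to 5 lower in WT clones, 0 to 1 lower in medium and 0 to 1 higher under stimulation between genotypes. Myc between genotypes under stimulation ranged from -0.63 to 0.16 over these fits, with 0.16 without the stimulated library of WT 1. Beyond the values given with the clone block above, the block changed no other call of a member. The cause of these changes was not tested. With 8 residual degrees of freedom, small changes may pass unseen, and Myc rested on 4 to 15 counts in KO libraries in medium.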
